A study of Mus musculus with 9 samples.

Results

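The core circadian clock was represented by 10 genes, *Arntl* (also named *Bmal1*), *Clock*, *Per1*, *Per2*, *Per3*, *Cry1*, *Cry2*, *Nr1d1*, *Nr1d2* and *Dbp*. They were chosen by gene symbol, and 10 of the 25239 genes listed in every library belong to the set. All 10 were present once in each library and passed the filter on low values. RNA-Seq was done on entire retinas of C57BL/6J mice at P42 (postnatal day 42), with 3 +/+ libraries, 3 Cre/+ libraries and 3 Cre/Cre libraries, each made from a pair of retinas. In Cre/+ and Cre/Cre mice, 1 or 2 copies of *Rbpms* carried a P2A-CreERT2 cassette joined to the end of the coding sequence, so that the endogenous locus of this RNA-binding protein of retinal ganglion cells (RGCs) drives the recombinase. CreERT2 is a recombinase that acts only after binding tamoxifen, P2A is a short peptide at which the ribosome releases the first protein and goes on to the next, and the +/+ mice carried no cassette. The labels name no tamoxifen treatment for these samples, and the knock-in mice descend from founders made by Cas9 injection of zygotes. The mice lived in alternating light and dark, and the time of day at which the retinas were collected is not given in the sources used here. The comparison of genotypes addresses whether the knock-in allele is accompanied by changes in retinal transcripts.

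The mammalian clock is a transcriptional feedback loop. ARNTL and CLOCK bind as a pair to E-box sequences and activate the *Per* and *Cry* genes, whose proteins return to the nucleus and repress that pair. In a second loop, the nuclear receptors encoded by *Nr1d1* and *Nr1d2* (REV-ERBα and REV-ERBβ) repress *Arntl*, while the ROR receptors activate it. DBP is an activator that is itself driven by the loop, so that *Dbp* and *Arntl* messages peak at nearly opposite times of day in many tissues. The retina holds a clock of its own, with photoreceptors, inner retinal neurons and RGCs all expressing clock genes, and it is known for daily rhythms of dopamine, melatonin and visual sensitivity.

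The elements through which the loop acts were looked up in RefSeq promoters on GRCm38.p6, the assembly of mm10. The question was which of them each member's start region holds. Of the 10 members, 9 had an entry, with 13 promoters in all, each of 250 bases before and 50 bases after a start, and *Per2* had none. Per1, Cry1 and Per3 are shown here because they hold 3 different elements or combinations, each as the 250 bases before the start, with the elements in capitals. The start used for each is the same as in the deposited gene tables. The Per1 window is chr11:69098699-69098948 (plus strand), the Cry1 window is chr10:85185055-85185304 (minus strand) and the Per3 window is chr4:151044666-151044915 (minus strand).
Per1: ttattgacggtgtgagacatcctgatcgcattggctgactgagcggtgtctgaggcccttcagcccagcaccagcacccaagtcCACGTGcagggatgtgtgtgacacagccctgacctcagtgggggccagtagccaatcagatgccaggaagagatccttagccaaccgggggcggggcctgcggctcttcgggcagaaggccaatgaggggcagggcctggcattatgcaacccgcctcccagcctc
Cry1: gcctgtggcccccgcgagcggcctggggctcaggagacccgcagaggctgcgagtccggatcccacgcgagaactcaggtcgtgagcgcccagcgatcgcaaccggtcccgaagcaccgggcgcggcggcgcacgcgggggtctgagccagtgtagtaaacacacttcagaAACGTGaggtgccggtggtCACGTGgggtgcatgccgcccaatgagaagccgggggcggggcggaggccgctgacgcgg
Per3: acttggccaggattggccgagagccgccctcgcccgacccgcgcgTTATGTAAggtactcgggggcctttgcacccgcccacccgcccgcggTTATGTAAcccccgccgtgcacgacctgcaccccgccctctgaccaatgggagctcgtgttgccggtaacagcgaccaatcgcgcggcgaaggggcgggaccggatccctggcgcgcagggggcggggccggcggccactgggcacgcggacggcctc

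The E-box CACGTG, to which ARNTL and CLOCK bind, was found in *Per1* (first base at -166 from the start) and *Cry1* (-60), against 7.15% of the 32851 mouse promoters of the same length. The related letters CACGTT, searched on both strands and read as AACGTG on the strand printed above, were found in *Cry1* (-79), *Cry2* (-166) and *Nr1d1* (-28), against 4.68% of promoters. The D-box TTATGTAA, to which DBP and its relatives bind, was found in *Per3*, at -205 and at -158, against 0.938% of promoters. A single promoter, that of *Arntl* at the second of its RefSeq starts, held the letters TAGGTCA of the element bound by REV-ERB and ROR receptors, which were found in 2.61% of promoters. This site is shown with the bases around it because it is the one that belongs to the REV-ERB loop, and it lies at chr7:113207530-113207558 (plus strand) of GRCm38.p6.
Arntl: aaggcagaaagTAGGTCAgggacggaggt
The letters TTACGTAA (0.119% of promoters) and those of the cAMP response element, TGACGTCA (1.79%), were in none of the members' windows. The motifs do not overlap one another in the sequences shown. *Clock*, *Dbp* and *Nr1d2* held none of the motifs searched, and *Cry2* and *Nr1d1* held only CACGTT. These matches describe letters in short windows only.

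In the deposited tables the libraries were alike in depth, with 4.05 to 4.65 aligned gigabases by the ratio of coverage to FPKM. The retinal identity of the samples was checked with 13 markers of photoreceptors, bipolar cells, amacrine cells, Müller glia and RGCs, all of which passed the filter on TPM, a gene's length-scaled share of all transcripts in a library, and which summed to between 41275 and 49615 TPM. The 8 lens markers summed to between 14.4 and 234 TPM in 8 libraries and to 1054 TPM in Cre/Cre replicate 2. The precursor of ribosomal RNA (Rn45s) made up 9.21% of Cre/Cre replicate 1 and no more than 0.336% of any other library, so that other genes read lower there. *Xist* was near absent, at 2.08 to 3.16 TPM, in Cre/+ replicate 3, Cre/Cre replicate 1 and Cre/Cre replicate 3, and at 516 TPM or above in the other 6, so sex is not balanced between +/+ and the knock-in groups. The targeted gene followed the labels: *Rbpms* was between 38.4 and 43.4 TPM in +/+, between 31.3 and 33.1 TPM in Cre/+ and between 19.1 and 24.2 TPM in Cre/Cre.

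All 10 clock genes were well expressed. In TPM, which is scaled by transcript length, *Nr1d1* had the highest mean over the 9 libraries, 261, followed by *Dbp* at 225 and *Nr1d2* at 180. *Arntl* (112) and *Cry2* (108) came next, then *Per1* (80.8), *Per3* (73.0), *Cry1* (61.1), *Clock* (58.8) and, lowest, *Per2* (22.8). The ranges over libraries of neighbours in this order overlapped, except between *Nr1d2* and *Arntl*, between *Per3* and *Cry1*, and between *Clock* and *Per2*. Against the 15198 genes tested, the mean level of *Nr1d1* was at percentile 96.3 and that of *Per2* at percentile 45.6.

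The genes also differed in how much they varied. *Per1* had the widest spread, with a coefficient of variation of 21.3% over the 9 libraries, and *Dbp* followed with 12.8%. *Cry1* (5.64%), *Per3* (6.11%) and *Cry2* (6.51%) varied least, and the median over all genes tested was 10.01%. Within genotypes, *Per1* and *Dbp* had coefficients of variation of 15.3% and 13.0%.

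**Figure D1:**
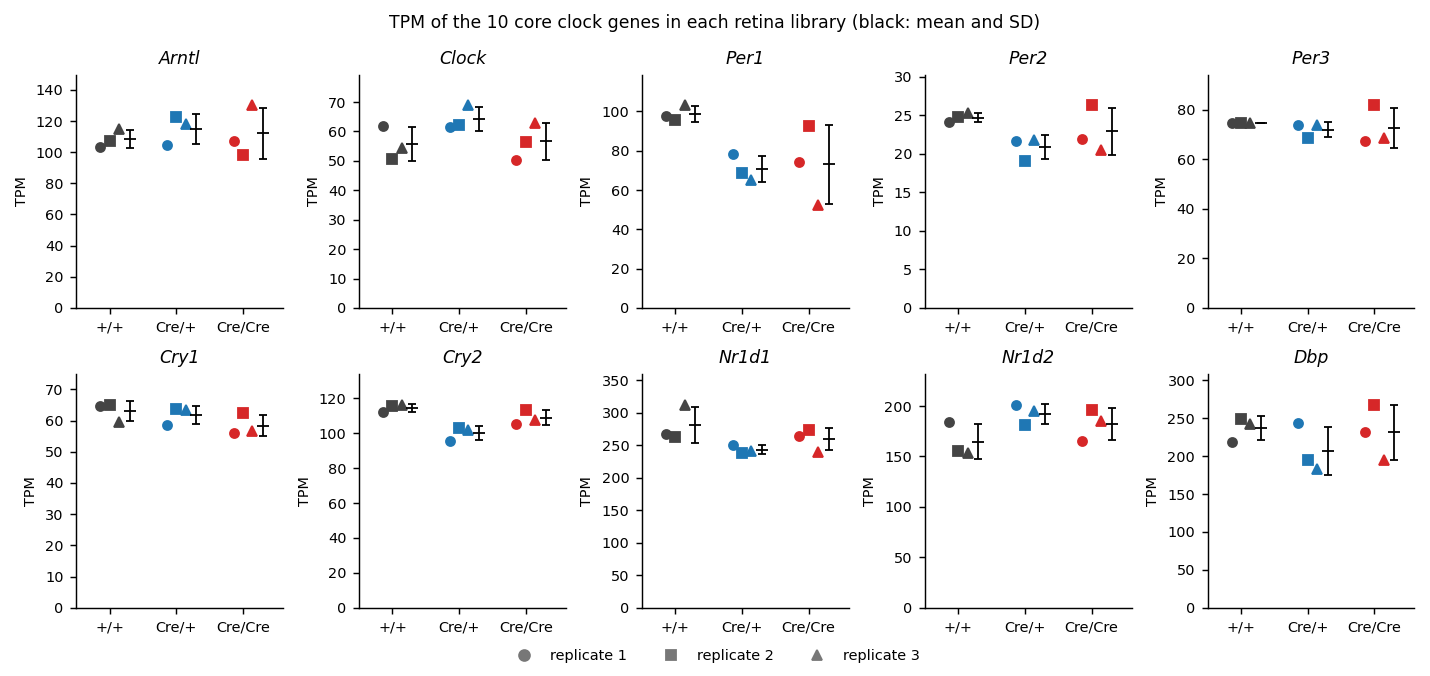
TPM of each core clock gene in the 9 retina libraries, by genotype, with symbols for the replicate number and the mean and SD (n = 3) in black; every vertical axis starts at 0. *Per1* lay between 95.6 and 103 TPM in +/+ and at 92.4 TPM or below in all 6 knock-in libraries, and the other genes had smaller differences for their level.

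The positive arm consists of *Arntl* and *Clock*, and for both the genotypes overlapped. *Arntl* was at 103, 107 and 115 TPM in the +/+ libraries, at 104, 122.5 and 118 TPM in Cre/+, and at 107, 98.4 and 130 TPM in Cre/Cre. The genotypes overlapped, and the lowest and the highest of the 9 values were both from Cre/Cre. The difference in log2(TPM + 1) from +/+ was 0.081 (SE 0.099) in Cre/+ and 0.037 (SE 0.099) in Cre/Cre, with adjusted p = 0.775 and 0.980 (limma, Benjamini-Hochberg over all genes tested, as for every adjusted p here).

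*Clock*, the partner of *Arntl*, was at 62.0, 50.6 and 54.4 TPM in +/+, at 61.4, 62.2 and 69.0 TPM in Cre/+, and at 50.4, 56.6 and 62.8 TPM in Cre/Cre. The Cre/+ libraries lay at the upper end, but +/+ replicate 1 lay among them. On the log2(TPM + 1) scale the Cre/+ difference was 0.21 (SE 0.096), with an unadjusted p of 0.0483 and an adjusted p of 0.461 by limma, and the Cre/Cre difference was 0.023.

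The negative arm, which consists of the *Per* and *Cry* genes, had differences from +/+ below 0 for all 5 genes in both knock-in genotypes, as 49.6% of all genes tested had in Cre/+ and 57.7% in Cre/Cre. Only that of *Per1* in each genotype and those of *Per2* and *Cry2* in Cre/+ had an unadjusted p under 0.05. *Per1*, the member of the loop that also responds quickly to light and to glucocorticoids, was at 97.5, 95.6 and 103 TPM in +/+. It was at 78.1, 68.4 and 65.4 TPM in Cre/+ and at 74.2, 92.4 and 52.5 TPM in Cre/Cre. Every knock-in library was below every +/+ library, although Cre/Cre replicate 2 came close to the lowest of them. The mean was 98.8 ± 4.03 TPM (SD, n = 3) in +/+, 70.6 ± 6.66 TPM in Cre/+ and 73.0 ± 20.0 TPM in Cre/Cre. On the log2(TPM + 1) scale *Per1* was lower by -0.48 (SE 0.17, 95% interval -0.88 to -0.085) in Cre/+ and by -0.47 (SE 0.17, 95% interval -0.86 to -0.071) in Cre/Cre. The adjusted p by limma was 0.409 and 0.655, so neither difference passed the limit of 0.05, and the difference between Cre/Cre and Cre/+ was 0.014.

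*Per2* was at 24.1, 24.7 and 25.2 TPM in +/+ and at 21.7, 19.1 and 21.8 TPM in Cre/+, with no overlap. In Cre/Cre it was at 21.9, 26.3 and 20.5 TPM, and replicate 2 was the highest of all 9 libraries. The difference in log2(TPM + 1) was -0.23 (SE 0.10, unadjusted p = 0.0392, adjusted p = 0.445 by limma) in Cre/+ and -0.11 (SE 0.10) in Cre/Cre. *Per3* was nearly the same in the 3 +/+ libraries, at 74.4, 74.5 and 74.4 TPM. It was at 73.7, 68.4 and 73.6 TPM in Cre/+, just below them, and at 67.5, 81.8 and 68.4 TPM in Cre/Cre. Its differences in log2(TPM + 1), -0.050 and -0.042, were smaller than their SE of 0.083.

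The cryptochromes, which repress ARNTL and CLOCK together with the PER proteins, had narrow ranges. *Cry1* was at 64.6, 65.1 and 59.5 TPM in +/+, at 58.5, 63.6 and 63.4 TPM in Cre/+, and at 56.1, 62.4 and 56.8 TPM in Cre/Cre. *Cry2* was at 112, 116 and 116 TPM in +/+, at 95.7, 103 and 102 TPM in Cre/+, and at 106, 114 and 108 TPM in Cre/Cre. The Cre/+ libraries were the 3 lowest for *Cry2*, below those of both other genotypes, whereas the genotypes overlapped for *Cry1*. The Cre/+ difference of *Cry2* in log2(TPM + 1) was -0.19 (SE 0.071, 95% interval -0.34 to -0.043), with an unadjusted p of 0.0151 and an adjusted p of 0.404 by limma, the smallest adjusted p of any member in the comparison of Cre/+ with +/+.

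The REV-ERB genes had differences of opposite sign. *Nr1d1* was at 267, 262 and 312 TPM in +/+ and at 251, 238 and 241 TPM in Cre/+, and at 263, 273 and 240 TPM in Cre/Cre. Its Cre/+ libraries were all below +/+, and its difference in log2(TPM + 1) was -0.20 (SE 0.082, adjusted p = 0.415 by limma). *Nr1d2* was at 185, 155 and 153 TPM in +/+, at 201, 182 and 195 TPM in Cre/+, and at 165, 196 and 185 TPM in Cre/Cre. Here the Cre/+ libraries lay at the upper end, overlapping +/+ by 1 library, and the difference was 0.23 (SE 0.089, adjusted p = 0.405 by limma). The Cre/Cre differences in log2(TPM + 1) were -0.11 for *Nr1d1* and 0.15 for *Nr1d2*.

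*Dbp*, the output factor, was at 219, 249 and 243 TPM in +/+. In Cre/+ it was at 243, 195 and 183 TPM, and in Cre/Cre at 231, 268 and 195 TPM. Of the 9 libraries, 3 were at 195 TPM or below, namely Cre/+ replicates 2 and 3 and Cre/Cre replicate 3, and the other knock-in libraries lay in or above the range of +/+. The difference in log2(TPM + 1) was -0.20 (SE 0.12, adjusted p = 0.554 by limma) in Cre/+ and -0.044 (SE 0.12, adjusted p = 0.982) in Cre/Cre.

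**Figure D2:**
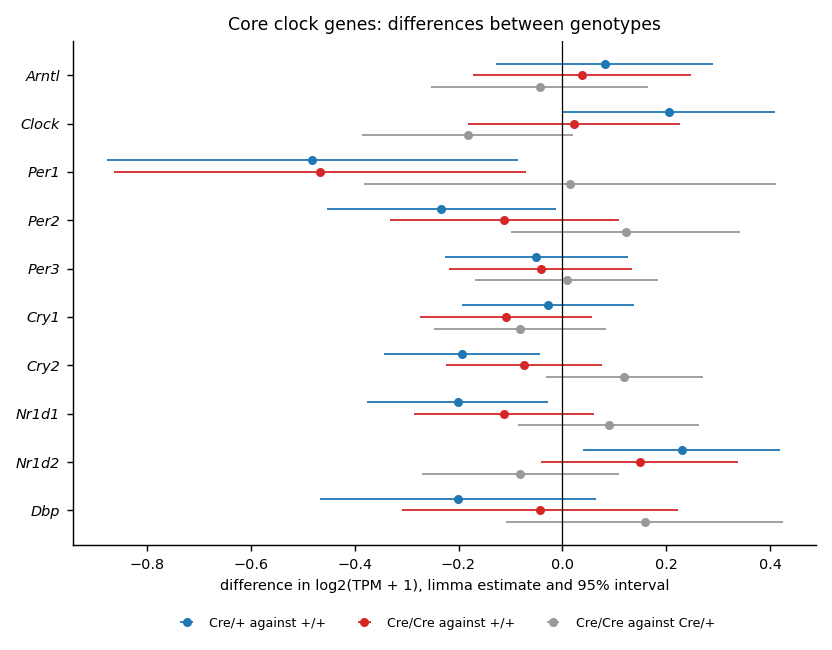
Difference in log2(TPM + 1) of each core clock gene between genotypes, as the limma estimate with its 95% interval, for Cre/+ and Cre/Cre against +/+ and for Cre/Cre against Cre/+. The estimates run from -0.48 to 0.23, and *Per1* has the lowest in both comparisons with +/+.

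None of the 10 genes passed an adjusted p of 0.05 in any comparison by limma. In Cre/+ against +/+, 0 of 10 passed, where 0.00658% of all genes tested did, and the same percentage passed in Cre/Cre against +/+ and in the trend over 0, 1 and 2 knock-in alleles. In Cre/Cre against Cre/+ the percentage was 0.0132%. At an unadjusted p under 0.05, 6 of the 10 genes differed in Cre/+, against 10.7% of all genes, with *Clock* and *Nr1d2* higher (4.9% of all genes) and *Per1*, *Per2*, *Cry2* and *Nr1d1* lower (5.82% of all genes). That count rested on few libraries: it was 1 without +/+ replicate 3, 3 without +/+ replicate 2, 2 without Cre/+ replicate 2 or without Cre/+ replicate 3, and 3 where a term for *Xist* entered the fit. In Cre/Cre it was 1 (*Per1*, lower), against 6.97% of all genes in either direction and 5.39% lower. It became 0 without +/+ replicate 3 and with the *Xist* term, and 2 under median-ratio scaling. It was 0 in Cre/Cre against Cre/+ (6.58% of all genes), and 3 without Cre/Cre replicate 3. For the trend it was 1 (*Per1*, -0.23 per allele), against 6.24% of all genes in either direction and 4.82% lower. It became 0 without any one of the +/+ replicates, without Cre/Cre replicate 3, under median-ratio scaling or with the *Xist* term, and 2 without Cre/Cre replicate 1.

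By a count that uses no model, 5 of 10 genes in Cre/+ (*Per1*, *Per2*, *Per3*, *Cry2* and *Nr1d1*) had all 3 libraries below all 3 of +/+, where 10.3% of all genes did, and none had all 3 above, where 11.9% did. The members share the same libraries and regulate one another, so counts of members here and above are not counts of independent genes. In Cre/Cre, *Per1* alone was below +/+ without overlap (8.05% of all genes). In Cre/Cre against Cre/+, *Cry2* alone did not overlap and was higher in Cre/Cre (4.76% of all genes). The median difference over the 10 members in log2(TPM + 1) was -0.12 in Cre/+, -0.059 in Cre/Cre (-0.0049 with Rn45s, *Rpph1* and *Lars2* left out of the TPM) and 0.011 in Cre/Cre against Cre/+, beside medians over all genes tested of 0.0014, -0.024 and -0.030. The comparisons with +/+ share the same 3 control libraries. Nothing in the sources says that the replicates came from separate days or litters, so these p-values measure only the spread between samples within genotypes. That spread was estimated from all 9 libraries in 1 fit. A comparison of a pair of genotypes therefore also draws on the libraries of the genotype left out of it. Levels of retinal markers stand beside these values. In Cre/Cre, 12 of the 13 had a difference from +/+ below 0, beside 57.7% of all genes, with a median of -0.088. In Cre/+ it was 6 of 13, beside 49.6% of all genes, with a median of 0.031. With Rn45s, *Rpph1* and *Lars2* left out, the Cre/Cre median over all genes went from -0.024 to 0.027. The marker values are not given with these left out. The RGC marker *Thy1* was at 342, 344 and 344 TPM in +/+, at 303, 327 and 317 TPM in Cre/+, and at 253, 299 and 281 TPM in Cre/Cre, with no overlap between genotypes. Its Cre/Cre difference in log2(TPM + 1) was -0.31 (SE 0.075, unadjusted p = 0.000856, adjusted p = 0.450 by limma). *Pou4f1*, a transcription factor of RGCs, had a Cre/Cre difference of -0.24 (SE 0.10, adjusted p = 0.664 by limma), and *Arr3*, the arrestin of cones, one of 0.30, and no marker passed the adjusted limit. In bulk tissue, fewer cells of a type and less RNA per cell cannot be told apart. In stained whole retinas of these genotypes, the paper reported no significant difference in the number of RGCs positive for RBPMS or for POU4F1. The part of these markers in the clock differences was not tested.

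Pairs of clock genes were also compared across libraries, and no pair passed the test after adjustment. Among the 45 pairs of members, 24 had a Pearson's r above 0 and 21 below 0 over the 9 libraries. *Per1* with *Per2* (r = 0.83, Spearman's coefficient = 0.77), *Per2* with *Per3* (r = 0.82, Spearman's coefficient = 0.80), *Per1* with *Nr1d1* (r = 0.81, Spearman's coefficient = 0.83) and *Per2* with *Nr1d1* (r = 0.79, Spearman's coefficient = 0.92) had the highest positive values. *Arntl* was negative with *Dbp* (r = -0.79, Spearman's coefficient = -0.73), with *Per1* (r = -0.73, Spearman's coefficient = -0.65) and with *Per2* (r = -0.70, Spearman's coefficient = -0.67). In exact permutation tests, two-sided, 15 of the 45 pairs had an unadjusted p under 0.05 for r. After adjustment over the 45 pairs none passed 0.05, and the smallest adjusted p was 0.0940 for r and 0.0590 for Spearman's coefficient (exact permutation).

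The relation of *Dbp* to *Arntl* can be read library by library. *Dbp* was lowest where *Arntl* was high, at 183, 195 and 195 TPM with *Arntl* at 118, 122.5 and 130 TPM. *Dbp* was highest, at 268 TPM, where *Arntl* was lowest, at 98.4 TPM, in Cre/Cre replicate 2. The exact permutation p for r = -0.79 was 0.0134 and for Spearman's coefficient of -0.73 it was 0.0311, with adjusted values of 0.120 and 0.171 over the 45 pairs. Without the 2 libraries farthest from the median of *Arntl* (Cre/Cre replicate 3 and Cre/+ replicate 2) r was -0.68, and for deviations from the genotype means it was -0.79. For *Arntl* with *Per1* the same omission took r from -0.73 to -0.34, and for *Arntl* with *Per2* from -0.70 to -0.37. The omission also narrows the range of *Arntl*, so it cannot show whether these relations rested on those 2 libraries. For deviations from the genotype means, r was -0.87 and -0.74 for these pairs. For *Per1* with *Per2*, r was 0.83 without the 2 libraries farthest from the median of *Per1* and 0.80 within genotypes. All of these values share the library and its scaling to a fixed sum.

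**Figure D3:**
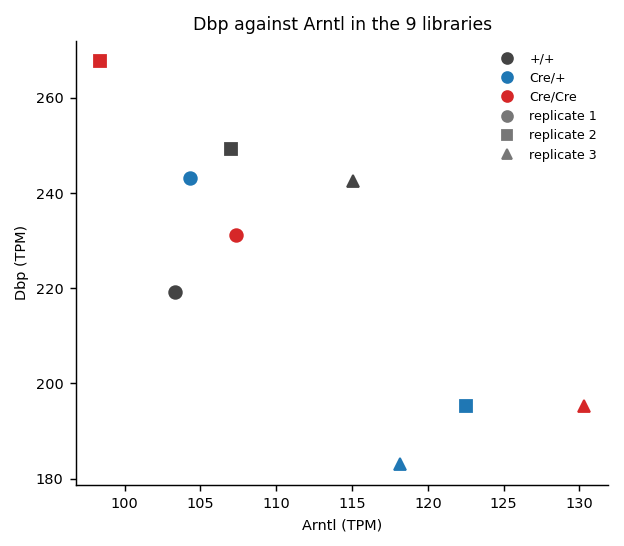
TPM of *Dbp* against TPM of *Arntl* in the 9 libraries, coloured by genotype, with a symbol for each replicate number; neither axis starts at 0. The 3 libraries with *Dbp* at 195 TPM or below have *Arntl* at 118 TPM or above, and Cre/Cre replicate 2 has the highest *Dbp* and the lowest *Arntl*.

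The ratio of *Dbp* to *Arntl* was 2.12, 2.33 and 2.11 in +/+, 2.33, 1.59 and 1.55 in Cre/+, and 2.15, 2.72 and 1.499 in Cre/Cre. The +/+ libraries were close to each other, and each knock-in genotype held a library at or above the highest of them and a library well below the lowest. The ratio of *Per1* to *Arntl* was 0.944, 0.893 and 0.898 in +/+, 0.749, 0.559 and 0.553 in Cre/+, and 0.691, 0.939 and 0.403 in Cre/Cre. Here Cre/Cre replicate 2 lay inside the range of +/+, and the other 5 knock-in libraries were below it. A ratio within a library does not depend on how its TPM were scaled.

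Over 12372 genes with a mean of at least 5 TPM, the genes most like *Arntl* across the 9 libraries included *Zdhhc14*, *Zmynd8*, *Zfyve1* and *Rbms2*, with r from 0.92 to 0.93. *Zmynd8*, a chromatin reader, ranged from 133 to 160 TPM. The genes most like *Dbp* were *G6pc3*, *Mir6955*, *Pfkl*, *Mrm2* and *Ccdc58*, with r from 0.94 to 0.96. *G6pc3*, a glucose-6-phosphatase, ranged from 55.1 to 72.5 TPM, and *Pfkl*, a phosphofructokinase of glycolysis, from 209 to 301 TPM. These are descriptions over 9 libraries of the highest of many values, and no member of the clock was among them.

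Of 28 further clock genes, 27 passed the filter and 0 passed an adjusted p of 0.05 by limma in either comparison with +/+. The gene below the filter was *Aanat*, which encodes the enzyme of melatonin synthesis, at 0.372 to 1.71 TPM. At an unadjusted p under 0.05, 3 were higher in Cre/+ (*Rora* and *Nampt* among them, beside 4.9% of all genes) and 1 was lower (*Usp2*, beside 5.82%). In Cre/Cre, *Usp2* alone was past that level (lower, beside 5.39%). The median difference in log2(TPM + 1) was -0.041 in Cre/+ and -0.018 in Cre/Cre.

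*Usp2*, which encodes a deubiquitinase that acts on PER1 and other clock proteins, was at 159, 152 and 149 TPM in +/+. It was at 112, 133 and 126 TPM in Cre/+ and at 137, 119 and 108 TPM in Cre/Cre. All 6 knock-in libraries were below all 3 of +/+. The difference in log2(TPM + 1) was -0.31 (SE 0.091) in Cre/+ and -0.34 (SE 0.091) in Cre/Cre, with unadjusted p = 0.00368 and 0.00187 and adjusted p = 0.365 and 0.542 by limma. Among the 37 clock genes tested, these were the smallest p-values in both comparisons with +/+.

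*Rora*, a receptor that activates *Arntl*, was at 102, 85.3 and 88.4 TPM in +/+ and at 110, 104 and 109 TPM in Cre/+, higher in each Cre/+ library (difference in log2(TPM + 1) 0.23, SE 0.093, adjusted p = 0.414 by limma). *Nampt*, which makes the precursor of NAD and is driven by the clock, was at 44.96, 41.2 and 40.6 TPM in +/+ and at 45.9, 49.7 and 50.7 TPM in Cre/+ (0.20, SE 0.093). Neither passed the adjusted limit.

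Among the E-box repressors, *Ciart*, whose product inhibits ARNTL and CLOCK, was at 39.7, 41.9 and 43.0 TPM in +/+, at 39.1, 22.6 and 25.5 TPM in Cre/+, and at 41.1, 49.1 and 29.4 TPM in Cre/Cre. The 3 libraries with the lowest *Ciart* were the 3 with the lowest *Dbp*. The Cre/+ difference in log2(TPM + 1) was -0.54 (SE 0.23, adjusted p = 0.467 by limma), the lowest estimate among the 37 clock genes, with the library of Cre/+ replicate 1 close to +/+. *Bhlhe40*, which competes for E-boxes, was at 66.3, 64.4 and 70.4 TPM in +/+ and at 57.7, 56.5 and 56.7 TPM in Cre/+, a narrow group below all of +/+ (-0.23, SE 0.14).

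Of the other further genes, 5 did not overlap +/+ in 1 of the knock-in genotypes. *Tef*, a relative of *Dbp*, *Nfil3*, which opposes it at D-boxes, and *Csnk1d*, a kinase of PER proteins, were lower in Cre/+ without overlap, with differences in log2(TPM + 1) of -0.097, -0.18 and -0.11. *Csnk1a1*, another casein kinase, was higher (0.12). *Npas2*, a paralog of *Clock*, was low in every library, at 1.97, 1.78 and 1.88 TPM in +/+ and at 2.08, 2.55 and 2.76 TPM in Cre/Cre, and was higher there without overlap (0.26, SE 0.18, adjusted p = 0.853 by limma). In all, 10 of the 27 tested further genes did not overlap in Cre/+, 4 higher and 6 lower, beside 22.2% of all genes, and 2 in Cre/Cre, beside 10.8%.

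**Figure D4:**
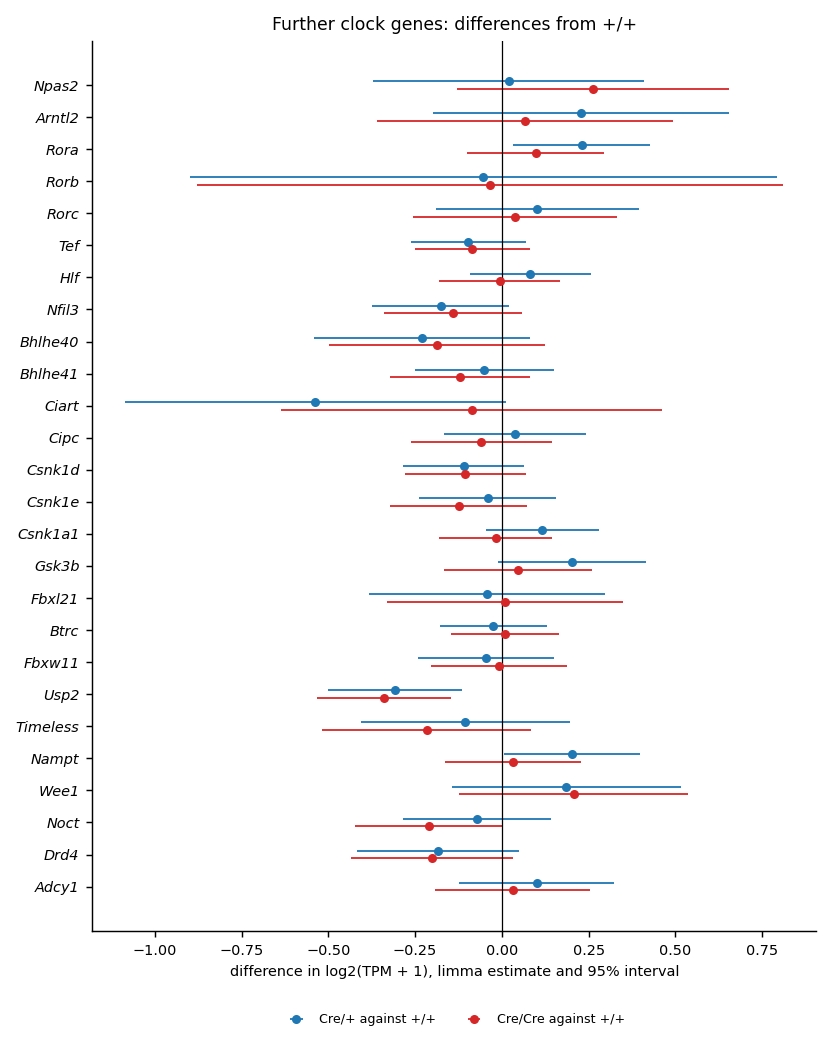
Difference in log2(TPM + 1) from +/+ for further clock genes that were tested, as the limma estimate with its 95% interval, in Cre/+ and in Cre/Cre. *Usp2* is the gene whose interval lies below 0 in both genotypes, and *Ciart* has the lowest estimate in Cre/+, -0.54.

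The libraries also differed in immediate early genes, which respond within minutes to light and other stimuli, and these values stand beside those of *Per1*. The summed level of 10 such genes was 371, 363 and 404 TPM in +/+, 443, 271 and 267 TPM in Cre/+, and 260, 591 and 234 TPM in Cre/Cre. *Egr1*, a zinc finger transcription factor, was at 32.8, 23.5 and 30.7 TPM in +/+, at 70.7, 14.3 and 12.9 TPM in Cre/+, and at 12.8, 127 and 13.1 TPM in Cre/Cre. Within each knock-in genotype the same library was highest for *Per1* and for the sum of these genes, Cre/+ replicate 1 and Cre/Cre replicate 2. *Fos* was at 46.6, 50.4 and 56.1 TPM in +/+, at 74.0, 28.9 and 24.4 TPM in Cre/+, and at 26.4, 94.4 and 22.0 TPM in Cre/Cre. *Nr4a1*, an orphan nuclear receptor, was at 61.0, 57.8 and 63.6 TPM, at 60.9, 32.5 and 31.2 TPM, and at 31.0, 91.1 and 24.1 TPM in the same order. The +/+ libraries lay close together for both, between the high and the low knock-in libraries or level with the high one. Of the 10 immediate early genes, 0 passed an adjusted p of 0.05 by limma and 0 an unadjusted p under 0.05 in any comparison between genotypes. The SE of the difference from +/+ in log2(TPM + 1) was 1.06 for *Egr1* and 0.65 for *Fos*. In Cre/+, 10 of the 10 had a difference from +/+ below 0 (median -0.25), beside 49.6% of all genes. In Cre/Cre it was 9 of 10 (median -0.27), beside 57.7% of all genes. By the count without a model, 2 were below +/+ without overlap in Cre/+ (*Fosb* and *Btg2*, beside 10.3% of all genes) and 1 in Cre/Cre (*Fosb*, beside 8.05%). *Fosb* was low, at 3.64 to 4.07 TPM in +/+ and at 2.77 to 3.27 TPM in the knock-in libraries. Cre/Cre replicate 2 was also the library with the most lens message. Its *Xist* was at 547 TPM, against 2.08 and 3.16 TPM in the other Cre/Cre libraries, while in Cre/+ *Xist* was at 585, 534 and 2.82 TPM. The part of immediate early genes and of lens message in the clock values was not tested, nor was that of sex beyond the fits with an *Xist* term. The time of day at which each library was collected is not known. Its part in the clock values could not be tested, and it cannot be told apart from that of genotype.

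**Figure D5:**
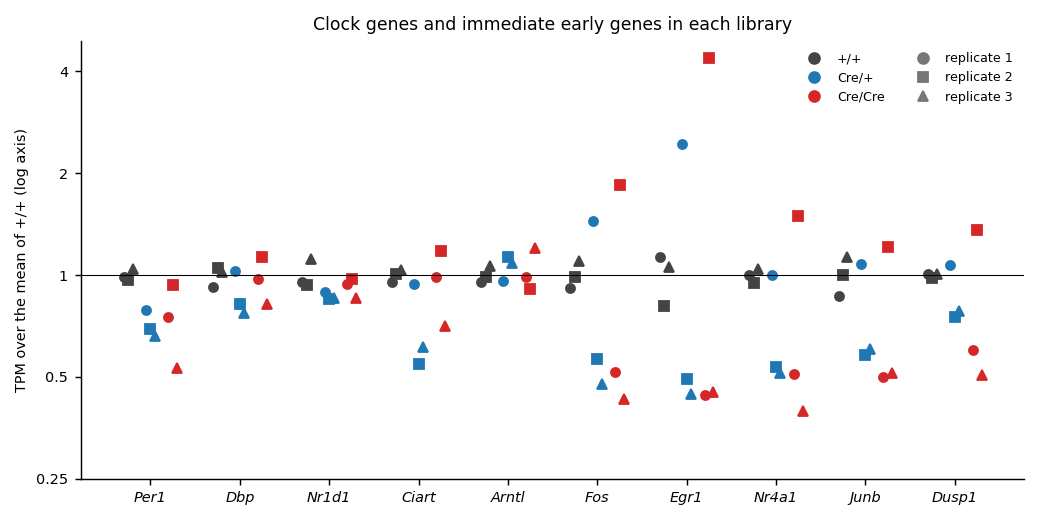
TPM of *Per1*, *Dbp*, *Nr1d1*, *Ciart*, *Arntl* and 5 immediate early genes in each library, divided by the mean of +/+, on a log axis. In Cre/Cre, *Per1*, *Dbp*, *Nr1d1* and *Ciart* are highest in replicate 2, which is also highest for all 5 immediate early genes, while *Arntl* is lowest there.

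Described after these values were seen, Cre/+ replicate 1 and Cre/Cre replicate 2 were both the highest library of their genotype for 5 of the 10 members, *Per1*, *Per3*, *Nr1d1*, *Nr1d2* and *Dbp*, and *Arntl* was lowest in both. Over all genes tested, 17.8% were highest in both and 7.7% lowest in both. Among the immediate early genes it was 8 of 10, and among the 28 further clock genes 9, *Ciart*, *Tef* and *Bhlhe40* included. No test was made of this, since the libraries were picked from their values. The 5 glucocorticoid-responsive genes gave a mixed picture. *Zbtb16* was at 4.46, 4.93 and 4.43 TPM in +/+, at 4.14, 11.4 and 9.37 TPM in Cre/+, and at 10.4, 3.56 and 4.73 TPM in Cre/Cre, and *Tsc22d3* lay between 48.4 and 54.0 TPM in all 9 libraries. Of the 4 that passed the filter, 0 had an unadjusted p under 0.05 or an adjusted p under it by limma in any comparison.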

How the data were processed

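Strand-specific poly(A) libraries from retinas of the 3 genotypes, 3 libraries each, were sequenced with paired reads. The authors used Trimmomatic and FastQC on the reads, HISAT2 for alignment to mm10, and StringTie for the level of each gene. The versions and the annotation are not given in the sources used here. The authors deposited 1 gene table per library with coverage, FPKM and TPM, and TPM sum to 1000000. The tables used here hold no counts, so the authors' DESeq2 test was not repeated, and counting error per gene is unknown. Deposited coverage (mean reads per base) divided by deposited FPKM gave the depth of each library.

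TPM were summed by gene name. The 15198 of 25239 genes whose mean TPM was 1 or more were tested by limma 3.58.1 (R 4.3.3; trend and robust prior) on log2(TPM + 1), so fold changes of low genes are understated. All 9 libraries entered 1 fit with genotype as the only term and 6 residual degrees of freedom. The Benjamini-Hochberg adjustment ran over all genes tested. Exact permutation tests used SciPy 1.17.1 in Python 3.11.15, and figures used matplotlib 3.10.9. The code was tested on simulated data.

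The members and gene lists were chosen with earlier results of these data known. All members are described, and of the further clock genes those past an unadjusted p of 0.05, or without overlap, in a comparison with +/+. The 5 genes most like *Arntl* and *Dbp*, *Rbpms*, *Xist* and Rn45s were also chosen for description. Genes of the immediate early, glucocorticoid, retinal, lens and other marker lists that met the same rule are not all named. Examples of immediate early, glucocorticoid and retinal marker genes named beside these were chosen after their values were seen. Alternatives were a pseudocount of 0.1, no filter, a mean TPM of at least 5, FPKM, median-ratio scaling, leaving out Rn45s, *Rpph1* and *Lars2*, a replicate block, *Xist* as a covariate, only the genotypes compared, no robust prior, and each library left out in turn. A few named genes are not reported here.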

Additional observations from a re-analysis of the deposited data

How the results depend on the processing

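No member passed an adjusted p of 0.05 by limma in any comparison under any of the alternatives run. Of 570 fits of a member under an alternative, 545 kept the direction and 25 changed sign, all of differences near 0. The adjusted p of *Per1* ran from 0.0783 to 0.882 in Cre/+ and from 0.132 to 0.998 in Cre/Cre, with differences from -0.56 to -0.37 and from -0.65 to -0.23. In Cre/Cre against +/+, differences in log2(TPM + 1) turned with FPKM for *Arntl* (-0.014) and *Clock* (-0.027), without Rn45s, *Rpph1* and *Lars2* for *Per3* (0.012) and *Dbp* (0.011), and with *Xist* as a covariate for *Arntl* (-0.069), *Clock* (-0.020), *Per3* (0.031) and *Dbp* (0.15). In Cre/Cre against Cre/+, they turned with FPKM for *Per1* (-0.010) and *Per3* (-0.017) and without Rn45s, *Rpph1* and *Lars2* for *Arntl* (0.0089). With 1 library left out, the ranges were -0.069 to 0.011 for *Cry1* in Cre/+, then in Cre/Cre against +/+ -0.076 to 0.13 for *Arntl*, -0.054 to 0.10 for *Clock*, -0.13 to 0.0075 for *Per3* and -0.15 to 0.072 for *Dbp*, and in Cre/Cre against Cre/+ -0.16 to 0.044 for *Arntl*, -0.17 to 0.23 for *Per1* and -0.080 to 0.058 for *Per3*. The median of the members ranged from -0.14 to -0.038 in Cre/Cre and from -0.069 to -0.014 in the trend with 1 library left out. Under the other alternatives it ran from -0.11 (FPKM) to -0.0049 (without Rn45s, *Rpph1* and *Lars2*) in Cre/Cre, from -0.055 to -0.0024 in the trend with the same settings, and from -0.14 to -0.062 (*Xist* as a covariate) in Cre/+. The r of *Dbp* with *Arntl* was -0.63 under median-ratio scaling and ran from -0.85 to -0.71 with 1 library left out. The cause of these shifts was not tested. Replicate numbers did not pair the libraries: deviations of same-numbered libraries correlated at -0.12 to 0.13, over 0.1 in 1 of 9 pairs. With the replicate number as a block, 4 members in Cre/+ and 1 in Cre/Cre had an unadjusted p under 0.05, in place of 6 and 1, and 0 passed the adjusted limit. Over all genes tested, genes called at the adjusted limit numbered 1 in Cre/+, 1 in Cre/Cre and 2 in Cre/Cre against Cre/+, and over all alternatives these counts ran from 0 to 6, from 1 to 7 and from 1 to 8.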
